A study of Mus musculus with 8 samples.

Results

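Mitochondrial and nuclear respiratory chain genes were followed across microglia of mice with neuromyelitis optica (NMO), in which the optic nerve and spinal cord become inflamed, and of control mice. The set holds 54 genes of 41388 in the count files: the 13 protein-coding genes of the mitochondrial genome and 41 nuclear genes for subunits of complexes I to V and for cytochrome c. They were chosen by name as subunits, not by any measured value, and all 54 symbols were found in the files. Microglia, the resident macrophages of the brain and spinal cord, were sorted from adult C57BL/6 mice by CD11b, CD45 and CD11c, and total RNA was sequenced as bulk libraries. The groups were CD11c+ microglia of NMO mice (2 libraries), CD11c- microglia of NMO mice (3 libraries) and microglia of control mice (3 libraries). For the control cells one label reads CD11c negative, whereas the titles read unmanipulated and total, so whether CD11c+ cells had been taken out is not settled, and no CD11c+ control was analysed here. The labels used here give no sex, exact age, way of inducing the disease, batch, or statement that libraries came from separate mice. The p-values therefore measure only the spread between these libraries, which may be technical.

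The respiratory chain lies in the inner mitochondrial membrane. Complexes I and II take electrons from NADH and succinate, complex III passes them to cytochrome c, complex IV hands them to oxygen, and complexes I, III and IV pump protons that drive ATP synthase, here complex V. Every complex but complex II is built from subunits of both genomes: the mitochondrial DNA encodes hydrophobic core subunits, and the nucleus encodes the other subunits, which are imported. Activated macrophages and microglia are known for shifting between oxidative phosphorylation and glycolysis.

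Depth was 4943207 and 5914412 counts in the NMO CD11c+ group, between 6437516 and 6819662 in the NMO CD11c- group and between 7500815 and 9246061 among controls. Itgax, which encodes CD11c, stood at 188 and 181 CPM (counts scaled to a common library total) in NMO CD11c+ microglia, against 35.5 to 41.3 CPM in NMO CD11c- and 30.6 to 32.1 CPM in control microglia. The first NMO CD11c+ library stood apart in base composition: its deviations from the mean of all libraries followed transcript GC content with a Spearman rho of 0.604 across genes, against -0.311 to -0.0319 in the other 7 libraries. All 8 microglial markers listed were detected, none of them at 0 counts, and summed to 31737 to 32664 CPM in NMO CD11c+, 32282 to 39968 CPM in NMO CD11c- and 39218 to 42961 CPM in control libraries. All 10 listed neutrophil markers were detected in the series, and their sum was 17.2 and 21.7 CPM in NMO CD11c+, 2186 to 11487 CPM in NMO CD11c- and 914 to 1869 CPM in control microglia. The 10 immediate-early genes summed to 9083 and 36504 CPM, to 7286 to 18799 CPM and to 21812 to 45955 CPM in the same 3 groups. The part of these differences in the results below was not tested. In bulk RNA, fewer cells of a type and less RNA per cell cannot be told apart.

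Of the 13 mitochondrially encoded genes, 7 were counted in depth and 6 were at or near 0 in every library. mt-Co1 and mt-Cytb, which encode the catalytic core of complex IV and the cytochrome b of complex III, held 112222 and 96863 counts over the 8 libraries. mt-Co2 and mt-Co3, 2 further core subunits of complex IV, held 11 and 14 counts, mt-Atp6 and mt-Atp8, the membrane subunits of ATP synthase, held 5 and 1, and mt-Nd4l and mt-Nd3 of complex I held 1 and 0. All 6 failed the low-count filter, with a minimum count of 10, and entered no test. In 5 of these 6 genes nearly every stretch of 50 bases also occurs in the annotated transcript of another gene, a copy of mitochondrial DNA in the nuclear genome: 100% of the stretches of mt-Co2, 99.9% of mt-Co3, 99.5% of mt-Atp6, 98.8% of mt-Nd4l and 98.0% of mt-Nd3. mt-Atp8 is the exception at 0%, with 1 count. Only annotated transcripts were compared, so a nuclear copy without an annotated gene, of mt-Atp8 or of any other member, would not be seen. The stretch length was set for this comparison, since the read length is not given in the sources used here, and how reads matching several places were treated is not given either. Most of these copies lie side by side on chromosome 1 of GRCm38, where the copy of mt-Co3 is Gm28437, at chr1:24613189-24613971 on the minus strand. The first 60 bases of both are shown, from base 1 of each gene 5′ to 3′, since they carry no difference between the mitochondrial gene (chrM:8607-9390, plus strand) and its nuclear copy.
mt-Co3: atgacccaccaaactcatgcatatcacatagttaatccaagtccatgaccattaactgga
Gm28437: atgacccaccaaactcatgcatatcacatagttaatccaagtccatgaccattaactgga
The annotated copies were themselves almost uncounted, with 1 to 60 counts each over all 8 libraries. The highest, Gm13340 at chr2:22588103-22589647 on the minus strand, is a copy of mt-Co1 with 37 mismatches in 1545 bases (97.6% identity). Bases 460 to 519 of both show 4 of those mismatches, in capitals, among the letters both share, and mt-Co1 lies at chrM:5328-6872 on the plus strand.
mt-Co1: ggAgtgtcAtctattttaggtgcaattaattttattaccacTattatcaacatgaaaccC
Gm13340: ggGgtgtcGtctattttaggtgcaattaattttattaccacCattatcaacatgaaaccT
mt-Co1 shares 51.1% of its 50-base stretches with other genes and mt-Nd4 62.2%, while mt-Nd2 and mt-Nd5 share 8.19% and 7.61% and mt-Nd1, mt-Nd6 and mt-Cytb share none. Per kilobase of transcript, the level over all libraries was 1562 CPM for mt-Cytb, 1344 for mt-Co1, 965 for mt-Nd1 and 329 for mt-Nd4. Set against the number of its own unshared stretches in place of its length, mt-Co1 had 2841 CPM per 1000 stretches, against 1632 for mt-Cytb, 1018 for mt-Nd1 and 902 for mt-Nd4. The order of mt-Co1 and mt-Cytb thus depends on which length is used, and no order among all 13 mitochondrial genes can be read from these counts.

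**Figure D1:**
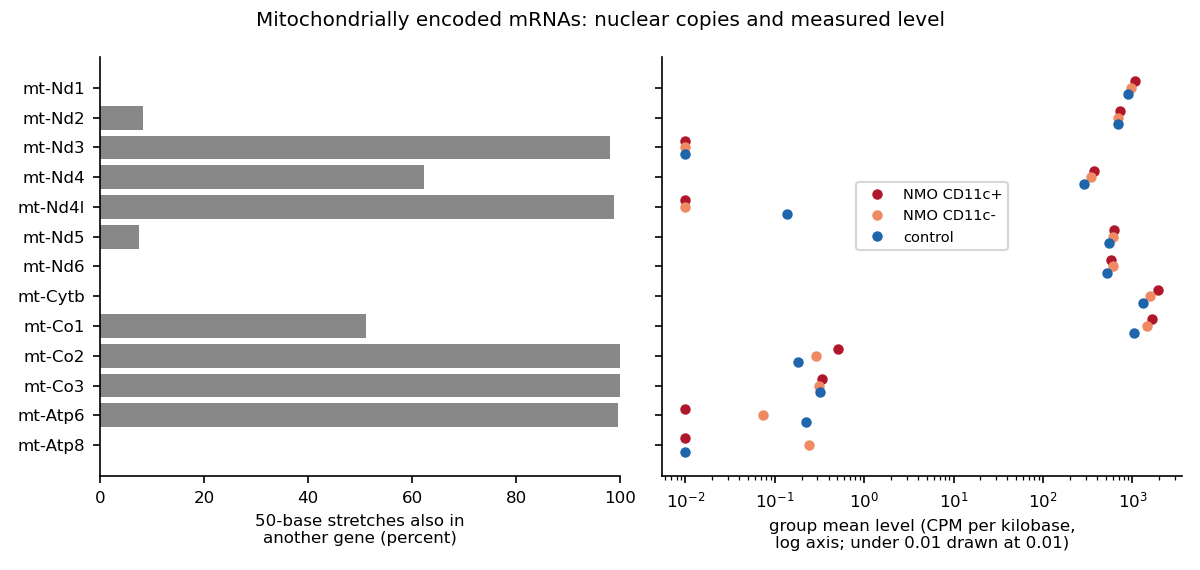
Share of 50-base stretches that also occur in another gene's transcript (left, percent) and group mean level per kilobase (right, CPM per kilobase on a log axis) for the 13 mitochondrially encoded genes; points are means of the NMO CD11c+, NMO CD11c- and control libraries. The 5 genes at 98.0% or more, and mt-Atp8 at 0%, form the low cluster at the left of the right panel, apart from the other 7.

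The 13 mitochondrial genes together took 0.748% and 0.905% of all counts in the NMO CD11c+ libraries, 0.754%, 0.759% and 0.791% in the NMO CD11c- libraries and 0.602%, 0.564% and 0.722% in the control libraries. All 5 NMO libraries stood above all 3 control libraries, while the first NMO CD11c+ library lay below and the second above the 3 NMO CD11c- libraries. The group means were 0.826 ± 0.111% in NMO CD11c+ (SD, n = 2), 0.768 ± 0.0203% in NMO CD11c- (n = 3) and 0.629 ± 0.0825% in control microglia (n = 3). The 95% Wilson intervals reached at most 0.00763 percentage points to either side of a library's share, so the spread between libraries was larger than counting error. The share of the 41 nuclear members was 0.256% and 0.212% in NMO CD11c+, from 0.211% to 0.230% in NMO CD11c- and from 0.197% to 0.211% in control microglia. Here the second NMO CD11c+ library lay within the range of the NMO CD11c- libraries, and the first had the highest share of all 8. The mitochondrial shares include the 6 genes that were hardly counted, at or near 0 counts, so these shares are no measure of all mitochondrial mRNA.

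mt-Cytb was the clearest of the mitochondrially encoded genes. It had 2166 and 2291 CPM in the NMO CD11c+ libraries, 1770.4, 1775 and 1839 in the NMO CD11c- libraries and 1494, 1341 and 1619.7 in the control libraries. The 3 groups did not overlap, with NMO CD11c+ highest and controls lowest. The log2 fold change was 0.59 ± 0.12 (SE) for NMO CD11c+ against control (edgeR quasi-likelihood test, adjusted p = 0.0164), 0.27 ± 0.11 for NMO CD11c- against control (adjusted p = 0.216) and 0.31 ± 0.12 for NMO CD11c+ against NMO CD11c- (adjusted p = 0.277). The rise against control was lost without the first or second control library (adjusted p = 0.0617 and 0.0751) and with the 2 groups alone (0.0771). After a correction for GC content and transcript length the log2 fold change between the NMO groups was 0.76 (adjusted p = 0.0844). Adjusted p means Benjamini-Hochberg over the 12002 genes tested throughout, and a gene is said to have risen or fallen where it is under 0.05.

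mt-Co1, the subunit that binds oxygen, had 2182 and 2889 CPM in the NMO CD11c+ libraries, 2107, 2308 and 2340.0 in the NMO CD11c- libraries and 1566, 1400.2 and 1821 in the control libraries. All 5 NMO libraries were above the controls, and both NMO groups overlapped. mt-Co1 rose in NMO CD11c+ against control by a log2 fold change of 0.67 ± 0.16 (adjusted p = 0.0275), and its log2 fold change in NMO CD11c- against control was 0.50 ± 0.14 (adjusted p = 0.0912). The second of these passed at 0.0204 and 0.0182 when either NMO CD11c+ library was left out and lay at 0.118 to 0.303 without any 1 of the other 6. The first was lost without the first or the third NMO CD11c- library or the first or the second control library, at adjusted p-values from 0.0505 to 0.105, and with the 2 groups alone (0.0927).

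The 5 tested mitochondrial genes of complex I, subunits of its proton-pumping membrane arm, passed no test. mt-Nd1, of the highest level per kilobase among the complex I members, had 919.8 and 1120.1 CPM in the NMO CD11c+ libraries, 893, 934 and 934 in the NMO CD11c- libraries and 840.4, 764 and 987 in the control libraries. The NMO CD11c+ and control libraries overlapped, and the log2 fold change was 0.24 ± 0.14 (adjusted p = 0.295). The log2 fold changes against control ran from 0.11 (mt-Nd2) to 0.39 (mt-Nd4) in NMO CD11c+ and up to 0.28 (mt-Nd4) in NMO CD11c-, none of them passing the test, although mt-Nd4 was called in NMO CD11c+ against control after the GC and length correction and without the first NMO CD11c+ library. mt-Nd6, the only one of these read from the other strand of the mitochondrial DNA, had a log2 fold change of -0.07 ± 0.18 between NMO CD11c+ and NMO CD11c- and of 0.22 ± 0.16 between NMO CD11c- and control. In each of the 5 genes the second NMO CD11c+ library had the highest value of all 8, while the first had the lowest for mt-Nd2 and lay within the range of the other libraries for the other 4.

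**Figure D2:**
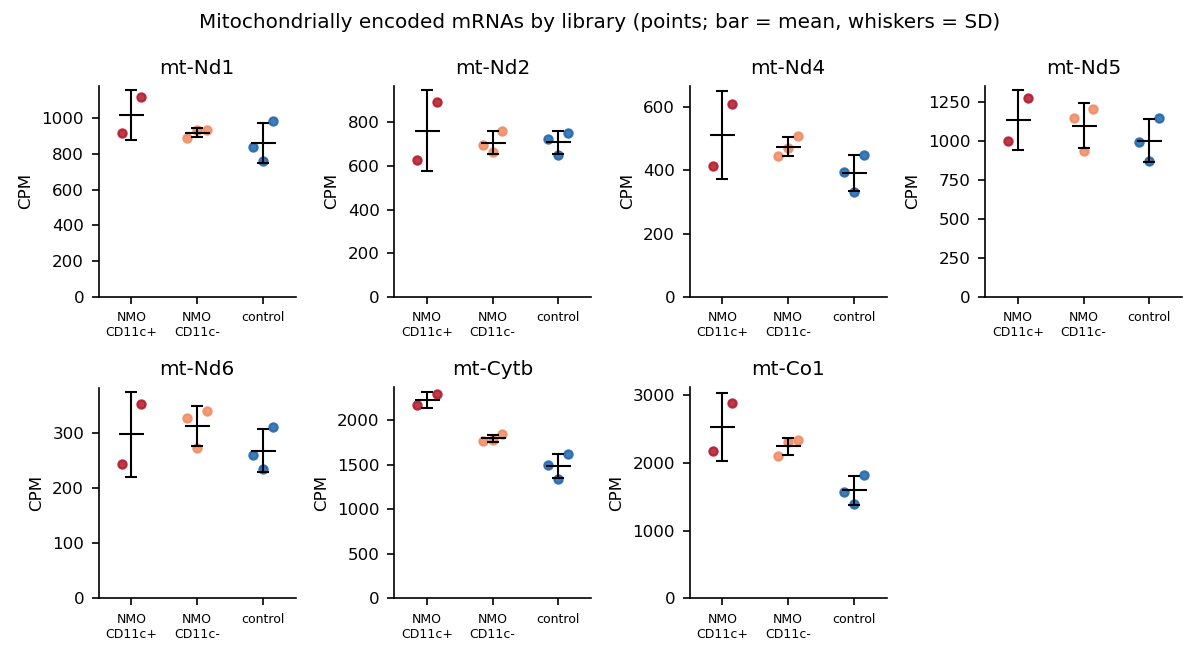
CPM of the 7 tested mitochondrially encoded genes in each library; points are libraries of NMO CD11c+ (n = 2), NMO CD11c- (n = 3) and control (n = 3) microglia, the bar is the mean and the whiskers are the SD. The groups separate fully for mt-Cytb, and both NMO groups lie above control for mt-Co1.

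Over all 48 tested members, 9 rose and 0 fell in NMO CD11c+ against control, where 10.2% of all tested genes were called, 6.85% higher and 3.36% lower. These 9 were Cox8a, Cox4i1, mt-Cytb, Cox7c, Atp5d, mt-Co1, Atp5o, Cox5b and Cox6c. All libraries of NMO CD11c+ lay above all controls for 20 of the 48 and below them for 1, where the background over all genes was 22.2% and 21.5%. The log2 fold change was positive for 40 members and negative for 8, with a median of 0.25 against 0.01 over all genes tested, and 19 members had an unadjusted p under 0.05, as did 28.8% of all genes. In NMO CD11c- against control, 1 member rose, Cox4i1, and 0 fell, where 3.72% of all tested genes were called, 3% higher and 0.717% lower. The libraries of NMO CD11c- lay above all controls for 15 members (17.6% of all genes) and below for 2 (16.1%), 6 had an unadjusted p under 0.05 (18.8% of all genes), and the median log2 fold change was 0.13 over 36 positive and 12 negative members. Between NMO CD11c+ and NMO CD11c-, 0 of 48 members passed in the edgeR quasi-likelihood test, where 0.283% of all genes did (0.1% higher, 0.183% lower), 7 members had an unadjusted p under 0.05 (15.4% of all genes), and DESeq2 and the edgeR exact test each called 1, Cox8a, where they called 2.23% and 2.54% of all genes. Here 8 members lay fully above (13.8% of all genes) and 3 fully below (14.2%), with a median of 0.16. The medians between the NMO groups turned on single libraries and on the processing. That of the nuclear members was 0.18, and 0.04 without the first NMO CD11c+ library. That of the mitochondrial ones was 0.11, and 0.34 without the first or -0.14 without the second NMO CD11c+ library. After the correction for GC content and transcript length the medians were 0.15 for the nuclear and 0.64 for the mitochondrial members. The comparisons share libraries, so that they are not independent of each other.

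The calls against control rest on few libraries. Without the first NMO CD11c+ library, whose GC content stands apart, 7 members were called in NMO CD11c+ against control (7.30% of all genes), 4 of them among the 9: mt-Cytb, mt-Co1, Cox4i1 and Cox8a. Without the second, 23 were called (33.9% of all genes), 18 higher and 5 lower, with 8 of the 9 among them; the lone NMO CD11c+ library is then assumed to vary like the other groups. Without the first, the second or the third control library 3, 2 and 5 were called (4.29%, 4.35% and 4.07% of all genes), and without the first or the third NMO CD11c- library 5 each (6.99% and 6.59%). With the 2 groups alone 3 were called (5.26%), Cox4i1, Cox8a and Cox7c. Cox4i1 and Cox8a were called in NMO CD11c+ against control without any 1 of the 8 libraries in turn, and also after a correction for GC content and transcript length.

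**Figure D3:**
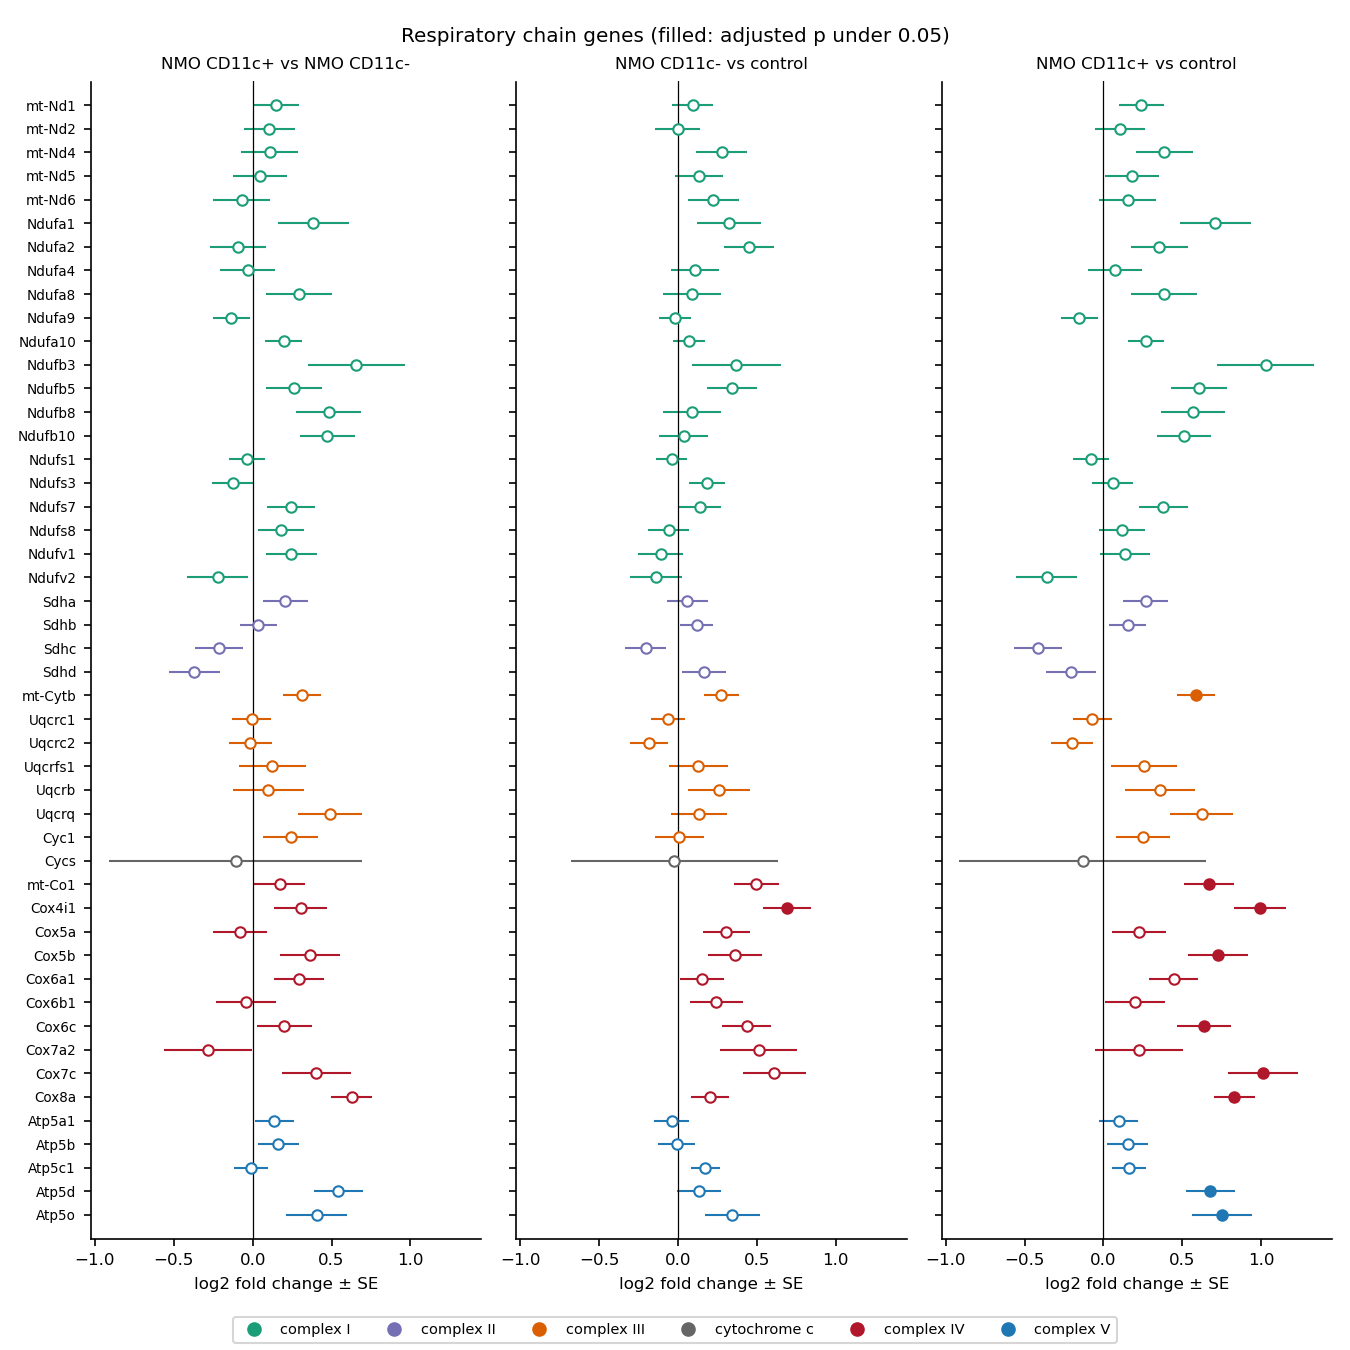
Log2 fold change ± SE of the 48 tested members in the 3 comparisons (panels), grouped and coloured by complex; filled points passed an adjusted p under 0.05. The filled points are 0, 1 and 9 from left to right, and 6 of the 9 belong to complex IV, whose members lie right of 0 in the middle and right panels, although 3 of 10 turn negative in NMO CD11c- after a correction for GC content and transcript length, and 2 of 10 in NMO CD11c+ without its second library.

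Complex IV, cytochrome c oxidase, held the most calls. Its 9 nuclear members are small subunits around the mitochondrial core. All 9 had a positive log2 fold change against control in both NMO groups. The medians were 0.64 in NMO CD11c+ (5 rose, 6 lay fully above) and 0.36 in NMO CD11c- (1 rose, 6 lay fully above). Over all genes tested, 6.85% rose and 22.2% lay fully above in NMO CD11c+ against control. In NMO CD11c- against control these shares were 3% and 17.6%. With mt-Co1 counted, 10 of 10 complex IV members were positive in both NMO groups. In NMO CD11c+ 8 of 10 stayed positive without the second NMO CD11c+ library, and 7 of 10 were positive in NMO CD11c- after correction for GC content and transcript length, with a median over the 10 of 0.18. Summed over the 9 nuclear genes, the level was 390.3 and 332 CPM in the NMO CD11c+ libraries, 279, 335 and 279 in the NMO CD11c- libraries and 236, 223 and 206 in the control libraries. Every NMO library stood above every control. The second NMO CD11c- library, which had the highest neutrophil marker sum of all at 11487 CPM, was also the highest of its group here. Both NMO CD11c+ libraries, with neutrophil sums of 17.2 and 21.7 CPM, lay among the 3 highest of the 8. The part of neutrophil RNA in these complex IV sums was not tested.

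Cox4i1, the ubiquitous form of the regulatory subunit IV, had the highest level per kilobase of the nuclear complex IV members, at 132 CPM. It had 161 and 112 CPM in the NMO CD11c+ libraries, 99.7, 128 and 104 in the NMO CD11c- libraries and 73.4, 70.7 and 61.2 in the control libraries. All 5 NMO libraries stood above the 3 controls. Cox4i1 rose in NMO CD11c+ against control by 0.99 ± 0.17 on the log2 scale (adjusted p = 0.00555) and in NMO CD11c- against control by 0.69 ± 0.15 (adjusted p = 0.0349). The second call was lost without any 1 NMO CD11c- or control library, at adjusted p-values from 0.0608 to 0.145. Without the second NMO CD11c- library, of the highest neutrophil sum, its log2 fold change was 0.57. Between the NMO groups the log2 fold change was 0.30 ± 0.17 (adjusted p = 0.389). Cox4i1 shares 154 exonic bases with its neighbour Emc8, and the strand setting of the counting is not given in the sources used here, so reads of the shared stretch cannot be assigned.

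Cox8a, the ubiquitous form of the smallest subunit, had 78.8 and 63.2 CPM in the NMO CD11c+ libraries, 42.2, 51.6 and 43.9 in the NMO CD11c- libraries and 41.0, 40.1 and 38.7 in the control libraries. Both NMO CD11c+ libraries stood above all others, and the NMO CD11c- libraries above the controls by a narrow gap. Cox8a rose in NMO CD11c+ against control by 0.83 ± 0.13 on the log2 scale (adjusted p = 0.00383). Against NMO CD11c- the log2 fold change was 0.63 ± 0.13 (adjusted p = 0.0759), which passed at 0.0124 in DESeq2. It also passed in the edgeR exact test, with no low-count filter and after the GC and length correction. It did not pass with other scalings, a stricter filter or the 2 groups alone. None of its 50-base stretches occurs in another gene and it shares no exonic base with a neighbour.

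Cox7c, a small subunit, had 17.6 and 13.04 CPM in the NMO CD11c+ libraries, 9.13, 13.4 and 12.0 in the NMO CD11c- libraries and 7.46, 6.75 and 8.500 in the control libraries. All NMO libraries stood above the controls, and the NMO groups overlapped. It rose in NMO CD11c+ against control by 1.01 ± 0.22 on the log2 scale (adjusted p = 0.0197), the largest change in complex IV and the only member call past a 2-fold change, and was lost without the first NMO CD11c+ library or the first or second control library (adjusted p = 0.0974, 0.0679 and 0.0802). Cox7c holds 61 to 89 counts per library and shares 53.0% of its 50-base stretches with 3 other genes, so its level is uncertain. Cox6c, another small subunit, had 23.9 and 26.6 CPM in the NMO CD11c+ libraries, 18.9, 26.6 and 20.4 in the NMO CD11c- libraries and 15.04, 17.4 and 16.3 in the control libraries. Only the second NMO CD11c- library reached the NMO CD11c+ range, and all controls were lower than all NMO libraries. Cox6c rose in NMO CD11c+ against control by 0.64 ± 0.17 (adjusted p = 0.0441), a call that was lost on leaving out any 1 library other than the second NMO CD11c- one (adjusted p up to 0.135), with scaling by library size only (0.0627) and with the 2 groups alone (0.0634). It shares 250 exonic bases with Vps13b. Cox5b, a zinc-binding subunit, averaged 10.2 ± 0.266 CPM in NMO CD11c+ microglia (SD, n = 2), 7.95 ± 0.812 in NMO CD11c- microglia (n = 3) and 6.18 ± 0.371 in controls (n = 3), and rose in NMO CD11c+ against control by 0.72 ± 0.19 (adjusted p = 0.0402). Cox5b was lost in DESeq2 (adjusted p = 0.0850), after the GC and length correction (0.0592), with no low-count filter (0.0877), with the 2 groups alone (0.0817) and on leaving out the first NMO CD11c+ library, the first or the third NMO CD11c- library or any control library (up to 0.124).

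The remaining 4 nuclear members of complex IV passed no test. Cox6a1, the form found in most tissues outside muscle, averaged 45.4 ± 10.4 CPM in NMO CD11c+ microglia (SD, n = 2), 36.9 ± 3.01 in NMO CD11c- microglia (n = 3) and 33.2 ± 3.16 in controls (n = 3). Its NMO CD11c+ libraries lay above the controls, with a log2 fold change of 0.44 ± 0.16 (adjusted p = 0.0954) that was -0.0886 with the correction for GC content and transcript length and without the first NMO CD11c+ library. Cox5a, Cox6b1 and Cox7a2 had log2 fold changes of 0.22, 0.20 and 0.22 in NMO CD11c+ against control and of 0.31, 0.24 and 0.51 in NMO CD11c- against control. For Cox7a2 the 2 NMO CD11c+ libraries lay at 8.58 and 18.5 CPM, one below all other libraries and one among the NMO CD11c- libraries.

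**Figure D4:**
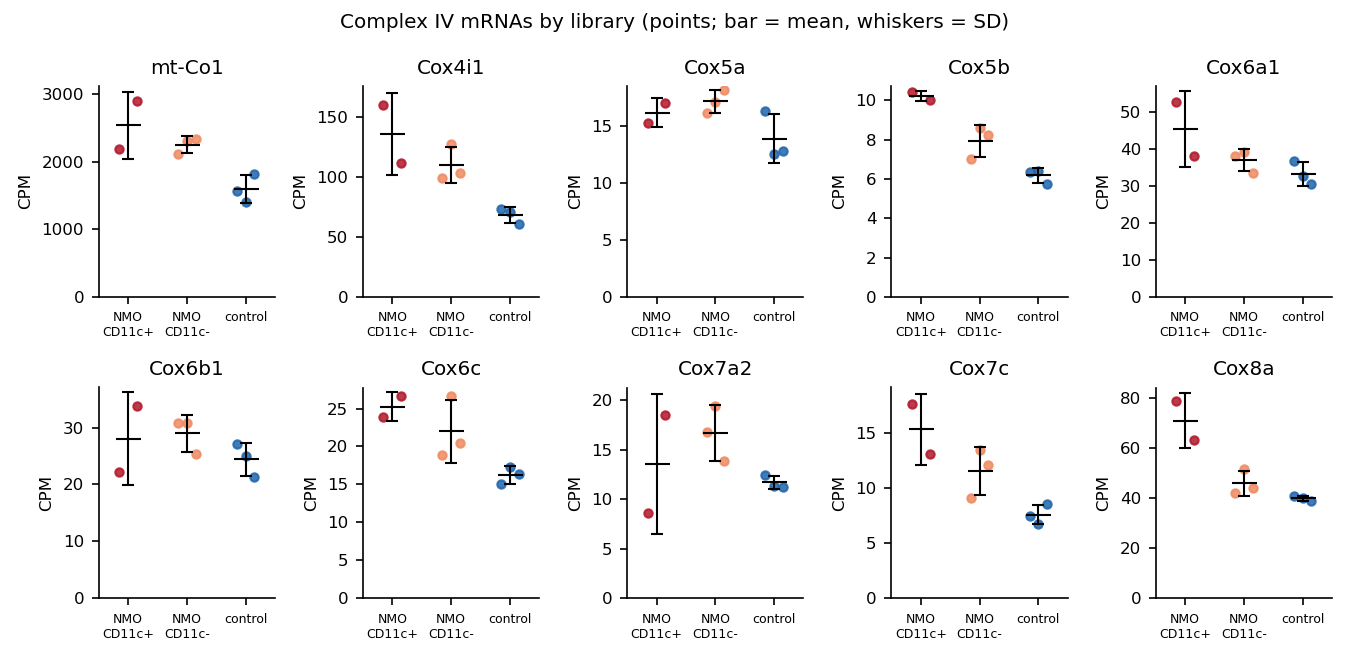
CPM of the 10 tested complex IV members in each library; points are libraries of NMO CD11c+ (n = 2), NMO CD11c- (n = 3) and control (n = 3) microglia, the bar is the mean and the whiskers are the SD. For mt-Co1, Cox4i1, Cox5b, Cox6c, Cox7c and Cox8a both NMO groups lie above every control library.

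In complex V, ATP synthase, 2 of 5 nuclear members rose in NMO CD11c+ against control, both of them subunits that link the catalytic head to the rest of the enzyme. Atp5b, the catalytic beta subunit, had the highest level per kilobase of the nuclear members, at 165 CPM, with 382 and 304 CPM in the NMO CD11c+ libraries, 306, 301 and 312 in the NMO CD11c- libraries and 317, 329 and 279 in the control libraries. All 3 groups overlapped, and the log2 fold change of NMO CD11c+ against control was 0.15 ± 0.13 (adjusted p = 0.462). Atp5a1, the alpha subunit, and Atp5c1, the gamma subunit, had 0.10 and 0.16 in the same comparison. Atp5d, the delta subunit at the foot of the head, had 88.0 and 58.1 CPM in the NMO CD11c+ libraries, 49.2, 48.5 and 52.5 in the NMO CD11c- libraries and 45.2, 44.2 and 47.5 in the control libraries. The first NMO CD11c+ library was above the other 7 and the second stood next. Atp5d rose in NMO CD11c+ against control by 0.68 ± 0.15 on the log2 scale (adjusted p = 0.0239), with 0.54 ± 0.16 against NMO CD11c- (adjusted p = 0.178). Atp5o, the stalk subunit that joins the head to the membrane part, had 37.4 and 24.0 CPM in the NMO CD11c+ libraries, 20.8, 26.0 and 22.3 in the NMO CD11c- libraries and 19.0, 18.7 and 16.7 in the control libraries. The NMO libraries stood above the controls and overlapped each other. Atp5o rose in NMO CD11c+ against control by 0.75 ± 0.19 (adjusted p = 0.0361), and its log2 fold change was 0.34 ± 0.17 in NMO CD11c- against control (adjusted p = 0.320). Neither call held without the first NMO CD11c+ library, where the log2 fold changes were 0.35 for Atp5d and 0.40 for Atp5o, or without any 1 of the control libraries (adjusted p = 0.0753 to 0.122), and Atp5o was also lost without the first or the third NMO CD11c- library (0.0556 and 0.0617). Both were also lost after the GC and length correction, where the log2 fold changes were 0.34 and 0.49 (adjusted p = 0.0844 and 0.0777 for Atp5d and Atp5o), and with the 2 groups alone (0.0738 and 0.0816). Atp5o shares 945 exonic bases with other annotated genes and 34.0% of its 50-base stretches.

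Complex I, NADH dehydrogenase, gave 0 calls among its 16 nuclear members in all 3 comparisons. At an unadjusted p under 0.05, 7 of the 16 passed in NMO CD11c+ against control, 1 in NMO CD11c- against control and 2 between the NMO groups. DESeq2 called Ndufb3 and Ndufb5 in NMO CD11c+ against control and the edgeR exact test Ndufa1 as well, all 3 higher. In that comparison Ndufb5 was also called with upper quartile scaling and without the first control library. Ndufb3 and Ndufb5 were also called with no low-count filter. Calls from fits with a lone NMO CD11c+ library are not listed here. Ndufb3, an accessory subunit of the membrane arm, had 28.0 and 13.2 CPM in the NMO CD11c+ libraries, 11.2, 15.4 and 12.3 in the NMO CD11c- libraries and 12.8, 8.03 and 9.29 in the control libraries. The first NMO CD11c+ library had the highest value of all 8, and the second lay within the NMO CD11c- range. Its log2 fold change was 1.03 ± 0.31 in NMO CD11c+ against control (adjusted p = 0.0611) and 0.66 ± 0.31 against NMO CD11c- (adjusted p = 0.339). Ndufa2, an accessory subunit of the matrix arm, had 21.0 and 18.0 CPM in the NMO CD11c+ libraries, 19.8, 24.1 and 18.5 in the NMO CD11c- libraries and 17.1, 15.4 and 13.1 in the control libraries. It had the largest complex I difference of NMO CD11c- against control, at 0.45 ± 0.16 (adjusted p = 0.152), with no overlap between those groups.

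The 9 accessory and 6 core subunits of complex I differed in their medians. The accessory subunits Ndufa1, Ndufa2, Ndufa8, Ndufa9, Ndufa10, Ndufb3, Ndufb5, Ndufb8 and Ndufb10 had a median log2 fold change of 0.51 in NMO CD11c+ against control, 8 positive and 1 negative. The core subunits that carry the flavin and the iron-sulphur clusters or hold them, Ndufs1, Ndufs3, Ndufs7, Ndufs8, Ndufv1 and Ndufv2, had a median of 0.09, 4 positive and 2 negative. In NMO CD11c- against control the medians were 0.09 and -0.05. The grouping follows textbook roles, was drawn with the values known and was not tested. Ndufa1, Ndufa2, Ndufa8, Ndufb3, Ndufb8 and Ndufb10 of the accessory group and Ndufs7 of the core group have transcripts under 1000 bases. All accessory subunits but Ndufa9, Ndufa10 and Ndufb5 were higher in the first NMO CD11c+ library than in the second. In the core group Ndufs7, Ndufs8 and Ndufv1 were. The parts of length and of that library in these medians were not tested. Among the accessory subunits Ndufb5 had 0.60 (adjusted p = 0.0570), Ndufa1 0.71 (0.0723), Ndufb8 0.57 (0.0985) and Ndufb10 0.51 (0.0854) in NMO CD11c+ against control. Of the core subunits, Ndufs1, the largest, had -0.08 and Ndufv2 -0.36. Ndufa4, named for complex I and later assigned to complex IV, had 0.07, and 0.11 in NMO CD11c- against control. It was counted with complex I here, so the complex IV counts, medians and sums leave it out. The lowest values of the 9 nuclear complex IV members in these comparisons were 0.20 and 0.15.

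Complex II, succinate dehydrogenase, also an enzyme of the tricarboxylic acid cycle and wholly encoded in the nucleus, gave 0 calls in any comparison, by the quasi-likelihood test, DESeq2 or the exact test, but Sdhc was called lower in NMO CD11c+ against control with no low-count filter. At an unadjusted p under 0.05, 1 of 4 passed in NMO CD11c+ against control, 0 in NMO CD11c- against control and 1 between the NMO groups. Sdha, its flavoprotein and the member of highest level per kilobase, had 221 and 155 CPM in the NMO CD11c+ libraries, 166, 160.3 and 161 in the NMO CD11c- libraries and 159, 165 and 144 in the control libraries. The groups overlapped, and the log2 fold change in NMO CD11c+ against control was 0.27 ± 0.14 (adjusted p = 0.245). Sdhb, the iron-sulphur subunit, had 0.15. Sdhc, a membrane anchor, had 29.0 and 41.4 CPM in the NMO CD11c+ libraries, 43.7, 39.9 and 39.1 in the NMO CD11c- libraries and 50.02, 45.0 and 46.4 in the control libraries. Both NMO groups lay below all controls, the one member for which NMO CD11c+ did, with a log2 fold change of -0.42 ± 0.15 (adjusted p = 0.103), and of -0.20 ± 0.13 in NMO CD11c- against control. Sdhd, the other anchor, had 33.5 and 50.2 CPM in the NMO CD11c+ libraries, 53.6, 53.6 and 55.8 in the NMO CD11c- libraries and 49.4, 52.1 and 43.7 in the control libraries. The NMO CD11c+ libraries lay below the NMO CD11c- libraries, which lay above the controls, with -0.37 ± 0.16 between the NMO groups (adjusted p = 0.315). For both anchors the first NMO CD11c+ library was the lower one, and without it the log2 fold changes were -0.19 for Sdhc against control and -0.11 for Sdhd against NMO CD11c-. Without the second, they were -0.70 for both and passed the test (adjusted p = 0.00321 and 0.00602).

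Complex III, the cytochrome bc1 complex, gave 0 calls among its 6 nuclear members in each comparison, beside the rise of mt-Cytb in NMO CD11c+. At an unadjusted p under 0.05, 1 of the 6 passed in NMO CD11c+ against control, 0 in NMO CD11c- against control and 1 between the NMO groups, and the exact test called Uqcrq in the first of these where DESeq2 called 0. Uqcrc1 was called lower in that comparison after the GC and length correction, and Uqcrq higher with no low-count filter. Uqcrq, a small subunit, had 18.0 and 29.4 CPM in the NMO CD11c+ libraries, 15.9, 17.3 and 17.6 in the NMO CD11c- libraries and 16.1, 14.0 and 16.2 in the control libraries. The NMO CD11c+ libraries stood above all others, the second far more than the first. The log2 fold change was 0.62 ± 0.20 against control (adjusted p = 0.0728) and 0.49 ± 0.20 against NMO CD11c- (adjusted p = 0.293). Without the first NMO CD11c+ library the log2 fold change of Uqcrq against control was 0.93, and without the second it was 0.22. The core proteins Uqcrc1 and Uqcrc2 had -0.07 and -0.20 in NMO CD11c+ against control. Cyc1, the cytochrome c1, the Rieske protein Uqcrfs1 and the small subunit Uqcrb had 0.25, 0.25 and 0.36. The first and second NMO CD11c+ libraries differed, with 27.0 and 49.5 CPM for Uqcrfs1, 82.9 and 51.4 for Cyc1 and 72.3 and 94.3 for Uqcrc2. These changes therefore depend on which NMO CD11c+ library is used, and calls from fits with a lone one are not listed here. Cycs, the somatic cytochrome c, was hardly counted, with 0 and 3.17 CPM in the NMO CD11c+ libraries, 1.65, 1.66 and 2.06 in the NMO CD11c- libraries and 2.20, 2.04 and 1.18 in the control libraries. Its groups overlapped, and 28.5% of its 50-base stretches occur in 76 other genes, so that the low level is uncertain.

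**Figure D5:**
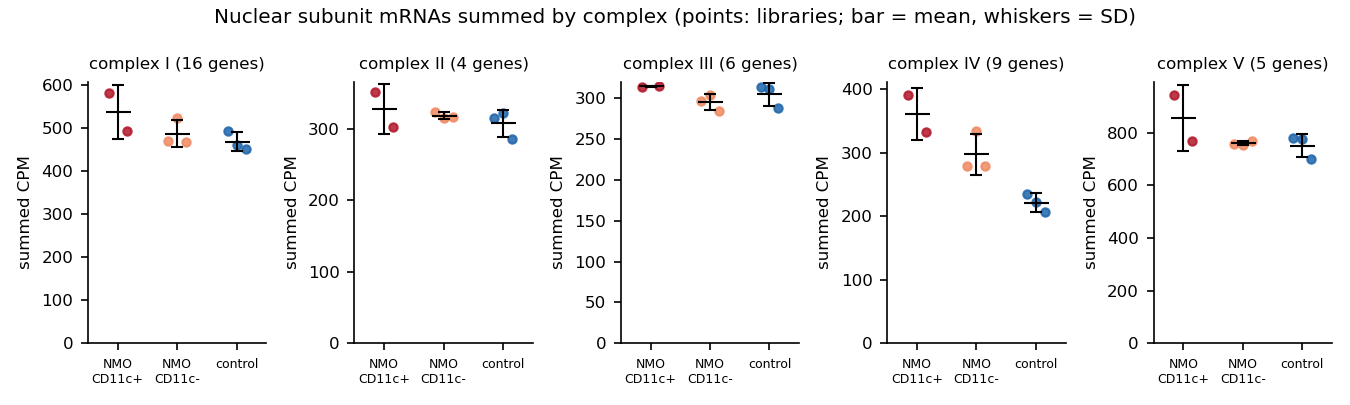
Summed CPM of the nuclear members of each complex per library; points are libraries of NMO CD11c+ (n = 2), NMO CD11c- (n = 3) and control (n = 3) microglia, the bar is the mean and the whiskers are the SD. Complex IV is 361 ± 40.9 CPM in NMO CD11c+, 298 ± 32.0 in NMO CD11c- and 222 ± 14.7 in control microglia, and in the other 4 complexes the groups lie closer together or overlap.

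By complex, the summed nuclear level separated the groups most for complex IV. Complex I summed to 537 ± 62.8 CPM in NMO CD11c+, 487 ± 31.9 in NMO CD11c- and 468 ± 22.6 in control microglia, complex II to 327 ± 35.0, 319 ± 4.97 and 308 ± 19.1 in the same order, and complex V to 856 ± 124, 760.0 ± 8.61 and 751 ± 45.3. Complex III summed to 314 ± 0.903 CPM in NMO CD11c+, 295 ± 9.83 in NMO CD11c- and 304 ± 14.1 in control microglia. In complexes I, II, III and V the NMO CD11c- libraries overlapped the controls, and of the 5 sums the one of complex IV had every NMO library above every control. These sums weigh the most abundant members most.

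Transcript length ran with these differences. All 9 nuclear members of complex IV have a principal transcript under 1000 bases, as do 10 other nuclear members: Ndufa1, Ndufa2, Ndufa4, Ndufa8, Ndufb3, Ndufb8, Ndufb10, Ndufs7, Uqcrb and Atp5o. Of these 19 short transcripts 19 had a positive log2 fold change in NMO CD11c+ against control (median 0.51) and 19 in NMO CD11c- against control (median 0.31), against 14 of 22 (median 0.13) and 11 of 22 (median near 0) for the longer ones. Over all genes tested, transcripts under 1000 bases were positive in 612 of 867 for NMO CD11c+ against control (median 0.31) and in 623 of 867 for NMO CD11c- against control (median 0.19), while the longer ones had medians of -0.01 and -0.02. Short transcripts rose in 12.1% of cases in NMO CD11c+ against control over all genes, beside 6 of the 19 short nuclear members. Within the short members, the 9 of complex IV had a median of 0.64 and the other 10 of 0.45 in NMO CD11c+ against control, with 0.36 and 0.20 in NMO CD11c- against control. Across the 41 nuclear members the log2 fold change fell with transcript length at a Spearman rho of -0.585 in NMO CD11c+ and -0.731 in NMO CD11c- against control, against -0.244 and -0.151 over 11946 genes; all points share the same libraries. With GC content rho was 0.249 for the nuclear members and 0.428 over all genes in NMO CD11c+ against control. It was 0.369 and 0.502 between the NMO groups, and 0.00174 and 0.0766 in NMO CD11c- against control. Of the members that rose against control in NMO CD11c+, Atp5d held 59.3% GC, Cox8a 58.5%, Cox4i1 58.0% and Atp5o 53.8%. Cox5b held 49.0%, Cox6c 47.2%, Cox7c 46.7%, mt-Co1 39.9% and mt-Cytb 39.1%. The split at 1000 bases was chosen after the values were seen, and the part of length or GC content in the members' differences was not tested.

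Promoters of the nuclear members were searched for motifs that are known from respiratory chain genes. The RefSeq table on GRCm38.p6 held 33 promoter windows of 300 bases for 31 of the 41 nuclear members, and each motif was read on both strands. GCGCA followed by any base and GCGC, the motif of nuclear respiratory factor 1 (NRF1), occurred in 7 of 33 windows (21.2%), against 4.60% of all 32851 promoters: those of Atp5c1, Atp5o, Cox6a1, Ndufa8, Sdha, Sdhd and Uqcrc1. CCGGAAG, a core of ETS factors, to which GABP belongs, occurred in 7 of 33 (21.2%), against 8.86% of all: those of Cox6a1, Cox6b1, Cox8a, Ndufs3, Ndufs8, Sdhb and Sdhd. AANATGG directly followed by CGGC, a YY1 motif, occurred in 2 of 33 (6.06%), against 0.986% of all: those of Ndufa9 and Ndufs7. Cox6a1 and Sdhd hold both of the first 2 motifs. These are matches of letters, not measured sites. Among the 5 nuclear genes that rose in NMO CD11c+ and have a window, Cox8a holds the ETS motif and Atp5o the NRF1 motif, and Cox5b, Cox7c and Atp5d hold none of the 3. The windows of Cox8a, Atp5o and Cox7c are shown 5′ to 3′ on the gene's strand as 1 case of each, with matches in capitals; the matches in Cox8a and Atp5o are to the opposite strand, and all 3 genes lie on the minus strand, at chr19:7217567-7217866, chr16:91931581-91931880 and chr13:86046746-86047045.
Cox8a: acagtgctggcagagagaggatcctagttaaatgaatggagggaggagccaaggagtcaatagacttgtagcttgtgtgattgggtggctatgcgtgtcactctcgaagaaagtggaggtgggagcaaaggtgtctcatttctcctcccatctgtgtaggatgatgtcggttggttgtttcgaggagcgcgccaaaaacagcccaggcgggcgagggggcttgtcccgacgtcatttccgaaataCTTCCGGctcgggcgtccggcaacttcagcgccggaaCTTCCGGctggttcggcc
Atp5o: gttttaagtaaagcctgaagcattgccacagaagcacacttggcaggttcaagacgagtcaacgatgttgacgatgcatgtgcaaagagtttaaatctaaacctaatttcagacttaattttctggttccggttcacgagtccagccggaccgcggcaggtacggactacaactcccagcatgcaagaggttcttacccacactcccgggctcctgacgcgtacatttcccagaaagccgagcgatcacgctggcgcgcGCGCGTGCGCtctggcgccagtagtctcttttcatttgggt
Cox7c: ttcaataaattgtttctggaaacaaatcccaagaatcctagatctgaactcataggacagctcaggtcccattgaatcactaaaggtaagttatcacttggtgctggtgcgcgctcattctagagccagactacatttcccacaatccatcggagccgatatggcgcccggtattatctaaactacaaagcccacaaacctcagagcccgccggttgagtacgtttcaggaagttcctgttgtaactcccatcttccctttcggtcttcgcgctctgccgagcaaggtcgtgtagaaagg

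Other genes of the pathway were counted from lists of further subunits, assembly factors, mitochondrial gene expression and biogenesis, and the tricarboxylic acid cycle. Of 37 further subunits tested, 7 rose and 0 fell in NMO CD11c+ against control, 3 rose in NMO CD11c- against control and 0 passed between the NMO groups, with medians of 0.37, 0.29 and 0.11. Here and for the lists that follow, the shares of all tested genes called higher were 6.85% in NMO CD11c+ and 3% in NMO CD11c- against control. Ndufa6, a complex I accessory subunit, averaged 39.5 ± 7.34 CPM in NMO CD11c+, 28.6 ± 1.17 in NMO CD11c- and 15.3 ± 0.708 in control microglia, a log2 fold change of 1.37 for NMO CD11c+ against control (adjusted p = 0.000452) and 0.91 for NMO CD11c- against control (adjusted p = 0.00477). Cox7a2l, which helps join complexes III and IV, averaged 65.9 ± 2.19 CPM in NMO CD11c+, 59.1 ± 0.900 in NMO CD11c- and 35.0 ± 2.91 in control microglia, and rose by 0.91 and 0.75 in the same comparisons. Uqcrh, the hinge protein of complex III, rose by 1.01 and 0.73, and Ndufb11 of complex I rose by 0.80 in NMO CD11c+ against control and had 0.29 in NMO CD11c- (adjusted p = 0.262). The other 3 that rose in NMO CD11c+ against control were Atp5e, Atp5j and Cox6a2, named after their values were seen. For these lists single libraries were not left out in turn. Between the NMO groups 9 of the 37 further subunits had an unadjusted p under 0.05, beside 15.4% of all genes. So did 3 of 43 assembly factors, 3 of 37 biogenesis genes and 2 of 18 tricarboxylic acid cycle genes.

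Of 43 assembly factors tested, 2 rose and 0 fell in each comparison with control and 0 passed between the NMO groups, with medians of 0.01, -0.02 and -0.02 for NMO CD11c+ against control, NMO CD11c- against control and NMO CD11c+ against NMO CD11c-. Pet100 and Surf1, both of complex IV assembly, rose in NMO CD11c+ against control by 1.38 (adjusted p = 0.0213) and 0.52 (0.0348). Cox17, a copper chaperone for complex IV, averaged 8.69 ± 1.58 CPM in NMO CD11c+, 12.9 ± 1.02 in NMO CD11c- and 5.20 ± 1.31 in control microglia. It rose in NMO CD11c- against control by 1.31 (adjusted p = 0.00842), with 0.74 in NMO CD11c+ (0.0835), and all NMO libraries lay above the controls. Foxred1, of complex I assembly, rose in NMO CD11c- against control by 0.45 (0.0361). Of 37 genes of mitochondrial gene expression and biogenesis, 1 rose in each comparison with control, Ssbp1, the mitochondrial single-stranded DNA-binding protein, by 0.70 in NMO CD11c+ and 0.61 in NMO CD11c-, and the medians were -0.03 and -0.01. Of 18 tricarboxylic acid cycle genes, 1 rose in NMO CD11c+ against control, Idh3b, a subunit of isocitrate dehydrogenase, by 0.43 (adjusted p = 0.0227), and 0 in the other comparisons, with medians of -0.08 and -0.07 against control. Of the mitochondrial ribosomal RNAs, mt-Rnr1 rose in NMO CD11c- against control by 1.01 (adjusted p = 0.0314) and mt-Rnr2 had 0.16. In NMO CD11c+ against control mt-Rnr1 had 0.84 (adjusted p = 0.0521), with its libraries above all controls, and mt-Rnr2 had -0.05. The NMO CD11c+ libraries differed widely, with 762 and 2147 counts for both rRNAs together. mt-Rnr1 averaged 50.4 ± 23.0 CPM in NMO CD11c+ and 28.3 ± 2.64 in control microglia. mt-Rnr2 averaged 217 ± 134 and 225 ± 29.2 CPM in the same groups.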

How the data were processed

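Bulk RNA sequencing of 8 microglia libraries was analysed. The deposited values are raw read counts per Ensembl gene: per the submitters' processing notes the authors used STAR, HTSeq 0.5.4 and edgeR 3.12.0 with build GRCm38, while the roles of these tools, the strand setting, the annotation release and the read length are not stated in the sources used. The 8 libraries held 4943207 to 9246061 counts, and replicate libraries differed by more than sampling noise. Intervals on shares cover counting error only.

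Symbols and coordinates came from GENCODE M21 (GRCm38), which matched 40340 of 41388 IDs; the other 1048 held 0.093% of counts. Of these genes 12002 passed filterByExpr with a minimum count of 10. All 3 groups were fitted together with the edgeR 4.0.16 quasi-likelihood test in R 4.3.3 (TMM scaling), with Benjamini-Hochberg adjustment over the 12002 genes. CPM are relative to TMM-scaled totals of the genes tested, and per-kilobase levels divide them by the length of the longest APPRIS principal transcript. The test was checked on simulated counts. Alternatives were other scalings, filters, DESeq2 1.42.0, the edgeR exact test, 2 groups alone, a 2-fold threshold, a correction for GC content and transcript length, and each replicate left out; the correction without each NMO CD11c+ library was added after seeing the data.

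Values per library are given for members called at a mean of at least 20 CPM and, in each complex, for the member of highest level per kilobase and that of largest change in each comparison; of the other lists, at most 4 called genes each by adjusted p. The members and lists were chosen with earlier results of these data known. No value is printed as a test of a list. Replicate numbers follow the order of deposit and pair nothing.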

Additional observations from a re-analysis of the deposited data

How the results depend on the processing

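Single members were followed across the alternatives only for the 32 results with an unadjusted p under 0.05, picked from these same data. The tally therefore does not cover the other member results. Under the alternatives, 532 values kept their direction and their side of the 0.05 threshold, 57 lost a call, 47 gained one and 4 turned sign. The 4 were log2 fold changes of NMO CD11c+ against control under the GC and length correction without NMO CD11c+ replicate 1, an alternative chosen after seeing the data: -0.0750 for Ndufb8, -0.0805 for Ndufb10, -0.0361 for Ndufs7 and -0.0886 for Cox6a1. The number of mitochondrially encoded members called between the NMO groups was 0, and 7 with that correction without NMO CD11c+ replicate 2. In NMO CD11c- against control it was 0, but 1 with no low-count filter, with the 2 groups alone, in DESeq2 and with the correction without either NMO CD11c+ library, and 0 to 1 on leaving out 1 library. In NMO CD11c+ against control it was 2, but 0 with the 2 groups alone and at a 2-fold threshold, 0 to 3 on leaving out 1 library, and 1 and 7 with the correction without replicates 1 and 2. For nuclear members, the count between the NMO groups was 0, but 2 with no filter (3.34% of all genes called), 1 with the correction (0.875%), the exact test (2.54%) or DESeq2 (2.23%), 0 to 17 on leaving out 1 library (25.2% at the highest, without NMO CD11c+ replicate 2) and 9 with the correction without replicate 2 (5.35%). In NMO CD11c- against control it was 1, but 0 at a 2-fold threshold and 0 to 1 on leaving out 1 library. In NMO CD11c+ against control it was 7, but 3 with the 2 groups alone, 11 in the exact test, 1 at a 2-fold threshold, 2 to 21 on leaving out 1 library, and 4 and 14 with the correction without replicates 1 and 2. The cause was not tested. With the correction alone the median log2 fold change of the nuclear members against control was 0.11 in NMO CD11c+ and -0.02 in NMO CD11c-, and that of the mitochondrial ones 0.57 and 0.05. No paired analysis was possible because the replicate numbers were given in accession order. With 2 and 3 libraries a group, small differences could not be detected.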
